A study of Mus musculus with 12 samples.

Results

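Stat3 summits near the genes for 10 secreted proteins of fibroblasts were collected: the macrophage colony-stimulating factor Csf1, the interleukin 6 (IL-6) family cytokines Il6, Lif, Osm and Il11, the chemokines Ccl2, Ccl7, Cxcl1 and Cxcl12, and the vascular growth factor Vegfa. These 10 were picked by name from the 55413 genes of the GENCODE M21 annotation, of which 21938 are protein-coding. The rule that picked them used no measured value, but earlier results of these data were known when it was made. For each gene, every summit within 50 kb of an annotated transcriptional start site was taken from each of the 5 deposited lists. A summit is the single base at which a peak of precipitated DNA is highest.

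The measurements were Stat3 ChIP-seq in immortalised mouse embryonic fibroblasts (MEFs) from Stat3 fl/fl embryos. Endogenous Stat3 had been removed in all cells by Cre recombinase, and MSCV vectors with a GFP marker had returned either WT-Stat3 (-/-WT cells) or Stat3-C3S (-/-C3S cells), a form with cysteines of its DNA binding domain substituted. Both are polyclonal lines sorted on GFP. Every culture spent the night before in medium with 0.5% FBS. The 5 conditions were -/-WT cells without stimulus (basal), -/-WT cells given leukaemia inhibitory factor (LIF) at 10 ng/ml for 45 min, -/-WT cells given hydrogen peroxide for 1 h, basal -/-C3S cells, and -/-C3S cells given peroxide for 1 h. The peroxide dose is 100 mM by the sample labels and 100 µM by the methods of the study. No -/-C3S cells given LIF are among the samples. Each condition had 2 ChIP replicates, which the authors combined into 1 list, which leaves no replicate error for any value and no replicate check of differences between lists. The lists hold summits only, so the fibroblast identity of the cells could not be checked against marker genes.

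The lists differed in size. That of LIF-treated cells held 1088 summits, the -/-WT basal and peroxide lists held 230 and 450, and the -/-C3S basal and peroxide lists held 145 and 223. They hold no read counts, and the study states a greater depth for the LIF libraries than for the others. LIF treatment and greater depth therefore cannot be told apart as sources of a longer list. The authors gave each summit a score, whose exact quantity is not stated in the sources used here, and it served below only to rank summits within their own list. In the LIF list the median share of bases in annotated repeats within 80 bp of a summit was 0%, whereas in the other 4 lists it was 100%.

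Stat3 is a transcription factor that cytokines of the IL-6 family switch on. These cytokines share the receptor subunit gp130 (Il6st), which pairs with a second subunit such as Lifr for LIF or Osmr for oncostatin M. The receptor then recruits Janus kinases, and Stat3 that they phosphorylate forms dimers that bind the sis-inducible element (SIE), the palindrome TTCCNGGAA. Fibroblasts are a known source of Csf1, of IL-6 and LIF, and of chemokines that draw in monocytes and neutrophils.

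In LIF-treated cells 4 of the 10 genes had a summit within 50 kb: Csf1, Ccl2, Ccl7 and Cxcl1. The 3 summits involved lay 0.0490 kb from Csf1, 0.0800 kb from Cxcl1, and 1.94 kb from Ccl7 and 8.16 kb from Ccl2, which share theirs. The other 6 genes, Il6, Lif, Osm, Il11, Cxcl12 and Vegfa, had none in any list. Among all protein-coding genes 7.38% had a LIF summit within this distance, and 5.54% among all annotated genes. The promoter window used in the study, from 5 kb upstream to 0.5 kb downstream of a start site, held a LIF summit at 3 of the 10 genes (Csf1, Ccl7 and Cxcl1), against 1.62% of protein-coding genes. Within 1 kb of a start site there was a LIF summit at 2 of the 10 (Csf1 and Cxcl1), against 1.36%. Since the genes were picked with earlier results known, Csf1 among them, these counts are a description and carry no test.

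Outside the LIF list, the 10 genes had 1 summit. It belonged to the -/-WT peroxide list and lay 22.2 kb from Cxcl1, where 1.15% of protein-coding genes and 1.37% of all genes had a summit within 50 kb of that list. The -/-WT basal list had none near the 10 genes (background 0.615% of protein-coding and 0.675% of all genes), nor had the -/-C3S basal list (0.410% and 0.449%) or the -/-C3S peroxide list (0.574% and 0.653%). With shares this low, a count of 0 among 10 genes lies close to the background. As a share of summits, 3 of the 1088 LIF summits lay near the 10 genes (0.276%, exact Clopper-Pearson 95% interval 0.0569 to 0.804%) and 1 of the 450 -/-WT peroxide summits (0.222%, 0.00563 to 1.23%). Taken as 3 counts of the total, a count of 0 allows a share of up to 1.30% in -/-WT basal, 2.07% in -/-C3S basal and 1.35% in -/-C3S peroxide. These intervals and limits cover counting error only.

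**Figure D1:**
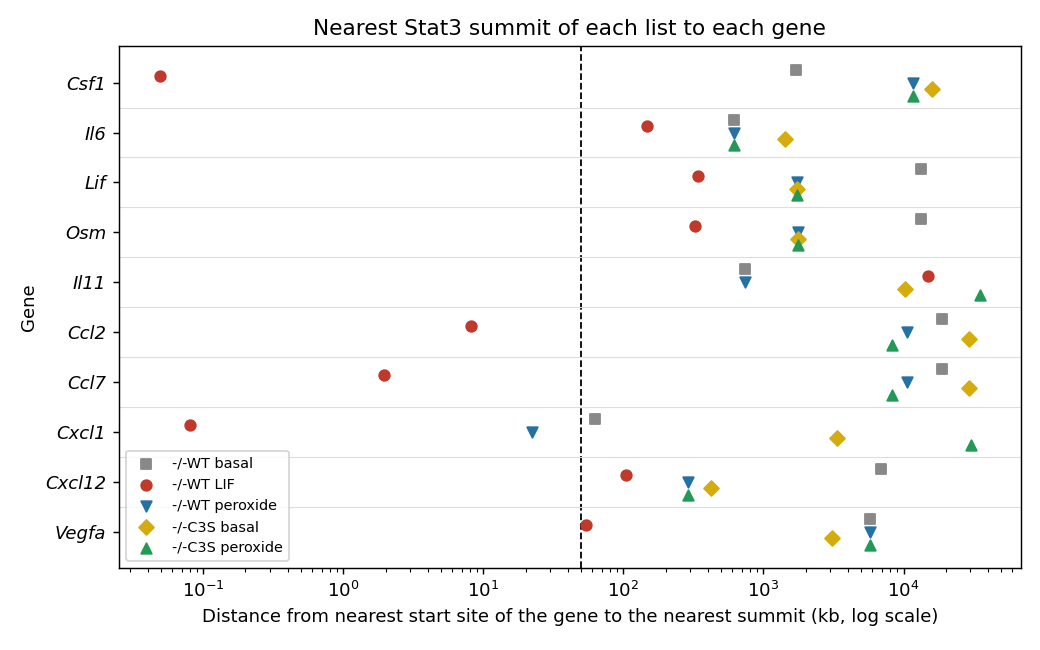
Distance in kb (log axis) from a start site of each gene to the nearest summit of each of the 5 lists, shown by colour and marker, with the 50 kb limit dashed. LIF summits lie left of the line at Csf1, Ccl2, Ccl7 and Cxcl1, and the only other point left of it is the -/-WT peroxide summit 22.2 kb from Cxcl1.

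Csf1 encodes the growth factor that macrophages and their precursors need to survive and divide. The gene (ENSMUSG00000014599) lies on the minus strand of chromosome 3, at 107741048 to 107760469 of mm10, with 7 annotated transcripts and 6 start sites. Its LIF summit, at 107760291, had a score of 62.2 and was the seventh highest (rank 7) of 1088, so that 99.4% of the list ranked lower. The summit lay 49 bp upstream of the start site at 107760242, which is shared by a protein-coding transcript and a retained intron. It was 55 and 70 bp upstream of the neighbouring start sites at 107760236 and 107760221. A further transcript starts at 107760469, and the summit fell 178 bp downstream of that start, in its annotated UTR. The remaining start sites, at 107750979 and 107750741, were 9312 and 9550 bp downstream of the summit.

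No other list had a summit close to Csf1. The nearest was 1.70 Mb away in the -/-WT basal list, 11.6 Mb in both peroxide lists and 16.0 Mb in the -/-C3S basal list. The 10 highest LIF scores ranged from 55.2 to 144 and included the summits at Stat3 itself (score 144), Osmr (136) and Junb (88.5). At those 3 genes the -/-WT basal list also had a summit within 200 bp, and at Stat3 the -/-WT peroxide list did as well. The other 7 of these 10 summits, that of Csf1 included, had no summit of another list within 200 bp. The same share over all 1088 LIF summits is not given here. Absence from the other lists was not particular to Csf1. Of the 55413 annotated genes, non-coding ones included, 358 others had a LIF summit within 1 kb and none within 50 kb in the other 4 lists. How many annotated genes had a LIF summit within 1 kb is not given here. Reads below the calling threshold in another condition would not appear in these lists. For Stat3, Socs3, Junb and Csf1 the study shows reads of basal and peroxide-treated -/-WT cells, and reports less basal binding after peroxide.

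The bases around the Csf1 summit held no SIE, exact or with 1 mismatch. Of all LIF windows of 80 bp either side of the summit, 15.3% held the SIE, against 0.461% of 10857 windows displaced by 10 to 50 kb, and with up to 1 mismatch the shares were 66.6% and 9.77%. The Csf1 window held none of either kind, no TTCNNNGAA (a looser pattern that every SIE also fits), no AP-1 site (TGANTCA, the motif of Fos and Jun dimers) and no NF-kB site, with both strands searched. Its summit ranked the highest of the 363 LIF summits without an SIE of up to 1 mismatch, and 9 of the 10 highest-scoring LIF summits had one. The closest sequence was TTATGGGAA, with 2 mismatches, at 107760298 to 107760306 and centred 11 bp from the summit. The study's promoter scan allowed up to 2 mismatches on 1 side of the central N, and those of TTATGGGAA both precede the N. A site of up to 2 mismatches occurred in 93.0% of LIF windows and in 52.8% of displaced ones. In the window, 29.2% of bases were in annotated repeats and 59.0% were G or C.

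The 29 bases centred on this site are shown beside those at Osmr and Il6st, the receptor genes with a LIF summit at their start site, because the cores differ by 1 base. The sites at Csf1, Osmr and Il6st were centred 11, 36 and 33 bp from their summits. At Il6st, other sites with 2 mismatches lay closer, at 11 and 22 bp. Capitals mark the 9 bases aligned to the SIE. All 3 are read from the plus strand of the GRCm38.p6 reference of RefSeq, at chr3:107760288-107760316, chr15:6874330-6874358 and chr13:112463940-112463968.
Csf1: ggcatgtggtTTATGGGAAatcaccctgg
Osmr: ggggcgggagTTACGGGAAagcgccgggg
Il6st: gggagccgcgTTACGGGAAtcgcagaggc

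The genes most like Csf1 were sought among those with a LIF summit within 1 kb and no summit within 50 kb in the other 4 lists, ordered by the difference of their best LIF score from that of Csf1. There were 358 such genes besides Csf1, and 3 of them had a higher score. Genes that share a summit were counted separately, and these 3 rest on the summits at ranks 3 and 4 only. The closest in score to Csf1 was Gm16174, an antisense gene, with a score of 48.9 (rank 18, 13.3 below Csf1). Dennd4b followed with 42.3 (rank 25), Ppm1h with 41.6 (rank 28) and the small RNA gene Gm27782 with 41.3 (rank 29). The gap to the nearest of them was larger than the whole span of these 4 scores.

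**Figure D2:**
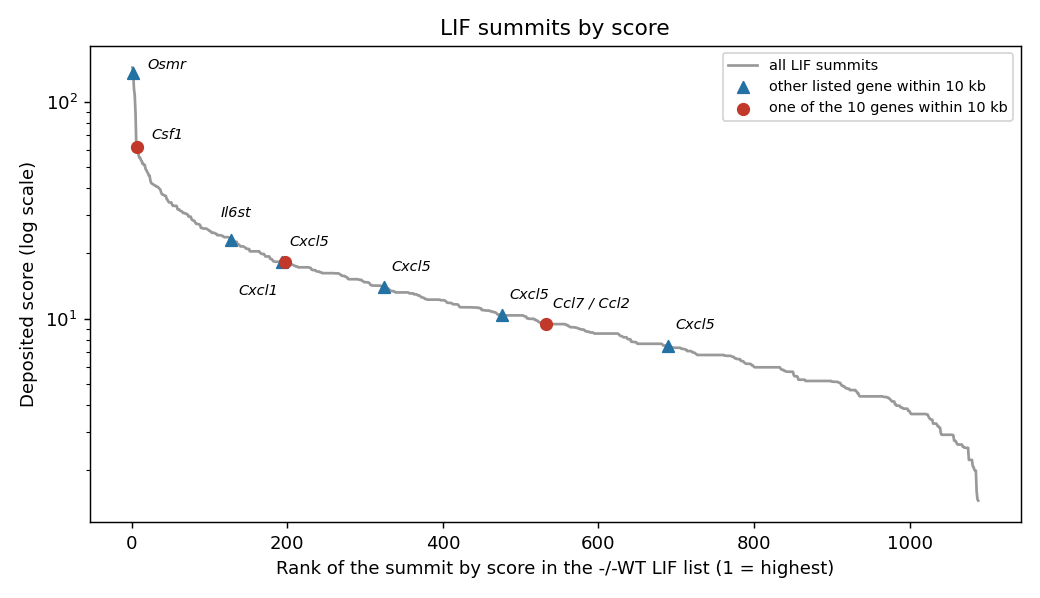
Score (log axis) of every LIF summit against its rank in the list. Red points are summits within 10 kb of Csf1, Cxcl1 and Ccl7 with Ccl2, at ranks 7, 197 and 532, and blue triangles are summits within 10 kb of the other cytokine, chemokine and receptor genes examined, from Osmr at rank 2 to a Cxcl5 summit at rank 689.

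Cxcl1 encodes a chemokine that attracts neutrophils. The gene (ENSMUSG00000029380) occupies 90891241 to 90893115 on the plus strand of chromosome 5 and has 2 annotated transcripts. Its LIF summit lay in the proximal promoter, at 90891161, 80 bp upstream of the first start site. With a score of 18.2 it ranked 197 of 1088, and 81.9% of the list ranked lower. None of the bases in the window were in annotated repeats, and 56.5% were G or C.

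The Cxcl1 window held no SIE but a site with 1 mismatch, CTCCGGGAA, at 90891170 to 90891178, centred 13 bp from the summit on its downstream side. The last 5 bases of this site are also the start of an NF-kB site, GGGAATTTCC, at 90891174 to 90891183. A further NF-kB match, shifted by 1 base, lies on the minus strand of the same stretch. NF-kB sites were found in 5.33% of LIF windows and in 2.62% of displaced windows. There was no AP-1 site, where 23.2% of LIF windows and 4.53% of displaced windows held one. The bases from 80 bp before the summit to the last base before the start site (chr5:90891081-90891240, plus strand, RefSeq GRCm38.p6) are shown because both sites fall in them. Capitals mark the joined SIE-like and NF-kB sites.
Cxcl1: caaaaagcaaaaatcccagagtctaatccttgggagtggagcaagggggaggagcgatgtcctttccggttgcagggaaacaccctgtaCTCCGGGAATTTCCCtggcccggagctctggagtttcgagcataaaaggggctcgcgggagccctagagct

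The single summit of the -/-WT peroxide list near the 10 genes lay at 90913427, 22.2 kb downstream of the Cxcl1 start site and beyond the end of that gene. It was closer to Cxcl2 (9.55 kb), which encodes a related neutrophil chemokine, and closest to the predicted gene Gm42530 (9.30 kb). Its score of 6.82 ranked 376 of 450, so that 16.4% of that list ranked lower. All bases of its window were in annotated repeats and 36.6% were G or C. As at Cxcl1 and Ccl7, an SIE with 1 mismatch was present, 47 bp from the summit, and such sites were in 6.22% of the windows of that list (95% interval 4.17 to 8.87%) and in 7.91% of displaced windows. The -/-WT basal list had a summit 63.1 kb upstream of Cxcl1, just outside the limit, with a score of 20.7 (rank 24 of 230), and its window was likewise all repeat. The nearest summits of the -/-C3S lists were 3.35 Mb (basal) and 30.4 Mb (peroxide) away. A window wholly in repeats was typical of the -/-WT peroxide list, where 445 of 450 windows were all repeat. In the LIF list this held for 4 of 1088 windows.

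**Figure D3:**
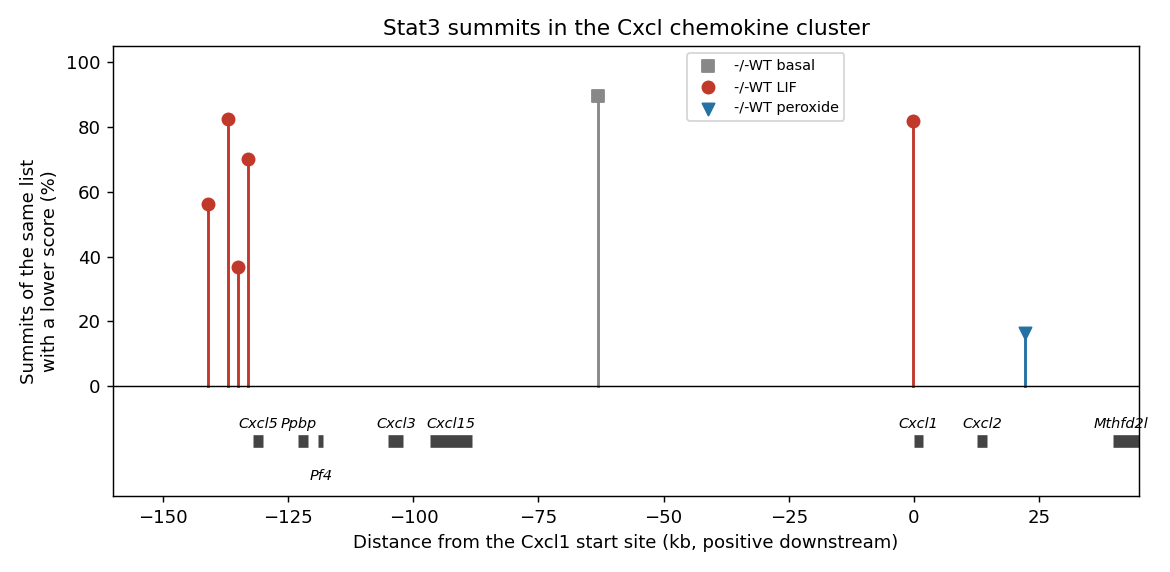
Summits of all lists around Cxcl1, by distance in kb from its start site, with protein-coding genes as dark bars below. Stem height is the percentage of summits of the same list with a lower score, 81.9% for the LIF summit at Cxcl1 and 16.4% for the -/-WT peroxide summit, and 4 more LIF summits stand upstream of Cxcl5.

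Cxcl1 belongs to a cluster of CXC chemokine genes, in which Cxcl5 had more LIF summits than Cxcl1. Cxcl5, which also encodes a neutrophil chemokine, had 4 of them in the 10 kb upstream of its start site. The nearest, at 0.933 kb, had a score of 14.0 (rank 324). The next had scores of 7.51 (2.65 kb, rank 689), 18.3 (5.26 kb, rank 193) and 10.4 (8.71 kb, rank 476). The summits at 5.26 and 8.71 kb were nearer to a start site of the gene Gm43090, at 3.57 and 0.126 kb. That at 8.71 kb lay inside Gm43090. Of 21938 protein-coding genes, 591 (2.69%) had at least 1 LIF summit within 10 kb, but 4 genes (0.0182%) had 4 or more, namely Cxcl5, Plec, Sbno2 and Socs3. Cxcl5 is not 1 of the 10 genes, and its number of summits was noticed after the values were seen. No summit of another list lay within 10 kb of it.

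The 4 summits upstream of Cxcl5 differed in sequence. The nearest had TTCCAGTAA, an SIE with 1 mismatch, 2 bp from its centre, and the AP-1 site TGAGTCA 50 bp to the other side. The summit at 5.26 kb had TTCCTGTAA at 22 bp and that at 8.71 kb had TTCTGGGAA at 47 bp, each with 1 mismatch. The summit at 2.65 kb had no site with up to 1 mismatch. It held TTCAAAGAA, of the looser pattern TTCNNNGAA, at 45 bp, and the 2-mismatch sites TTTCTGTAA and TTCTGGTAA at 2 and 68 bp. The looser pattern was found in 40.7% of LIF windows and 5.19% of displaced windows. The window of the nearest summit (chr5:90758347-90758507, plus strand) is shown because it holds an SIE-like and an AP-1 site, both in capitals, the AP-1 site leftmost.
Cxcl5: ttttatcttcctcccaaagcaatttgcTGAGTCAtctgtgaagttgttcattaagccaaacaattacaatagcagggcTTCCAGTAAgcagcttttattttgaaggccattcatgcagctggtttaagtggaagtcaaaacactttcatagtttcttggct

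Ccl2 and Ccl7 encode chemokines that attract monocytes, and their genes lie side by side on the plus strand of chromosome 11. Ccl2 (ENSMUSG00000035385) occupies 82035571 to 82037453 and Ccl7 (ENSMUSG00000035373) 82045712 to 82047525. Their start sites are 10.1 kb apart, and 1 LIF summit, at 82043775, lay between the genes. It was 1.94 kb upstream of Ccl7 and 8.16 kb downstream of the nearest Ccl2 start site, past the end of Ccl2. It was also within the limit of Ccl11 (14.0 kb), an eosinophil chemokine gene. The score of 9.48 ranked 532 of 1088, near the middle of the list, with 51.1% ranked lower. Which of these genes the summit belongs to, if any, was not tested. The nearest summit of any other list was 8.30 Mb from Ccl2, in the -/-C3S peroxide list.

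At this summit the closest matches were weak ones, TCCCAGTAA and TTCCCAGTA, which overlap, have 2 mismatches each to the SIE and were centred 8 and 9 bp away. The SIE with 1 mismatch, TTTCAGGAA, was centred 68 bp from the summit at 82043839 to 82043847. An AP-1 site, TGAGTCA, was centred 58 bp away at 82043830 to 82043836, so that 2 bases separate them. Neither of these last sites lay within 50 bp of the summit. The window was free of annotated repeats, with 50.3% G or C. It is shown (chr11:82043695-82043855, plus strand) with both sites in capitals, the AP-1 site leftmost.
Ccl7: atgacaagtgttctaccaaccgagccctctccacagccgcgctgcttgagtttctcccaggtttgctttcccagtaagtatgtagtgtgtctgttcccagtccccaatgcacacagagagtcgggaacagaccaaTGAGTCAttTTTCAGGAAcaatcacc

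**Figure D4:**
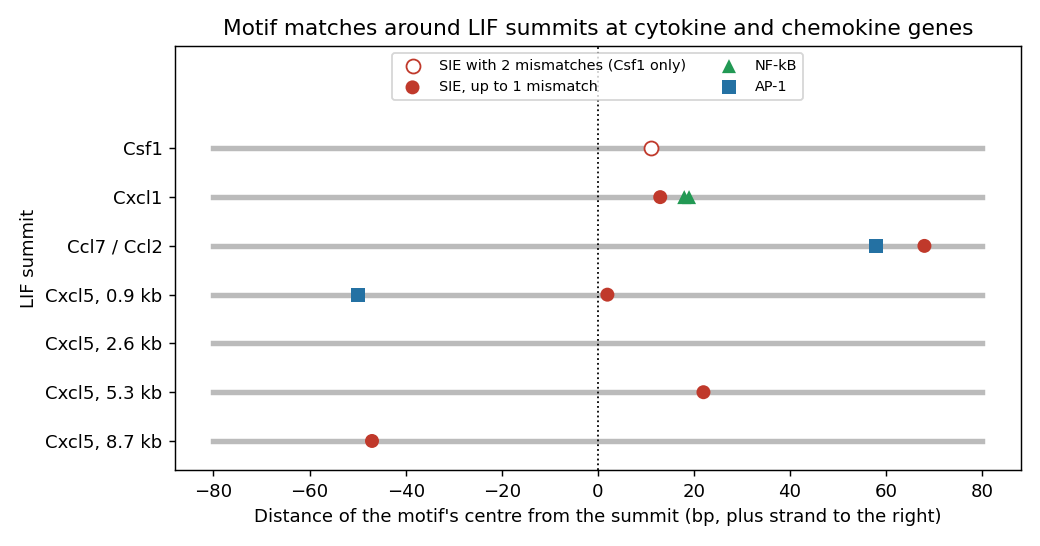
Position of motif matches, in bp from the summit along the plus strand, in windows of 80 bp either side of 7 LIF summits. SIEs with 1 mismatch are centred 13 bp from the Cxcl1 summit and 68 bp from the Ccl7 summit, and the Csf1 summit has no match but a site with 2 mismatches (open circle) at 11 bp. Sites with 2 mismatches are drawn for Csf1 only.

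The 6 genes without a summit within 50 kb differed in how far the nearest was. Vegfa (ENSMUSG00000023951), which encodes the main growth factor for blood vessels, came closest, with a LIF summit 54.3 kb upstream of a start site (score 6.75, rank 763). It lies on the minus strand of chromosome 17 at 46016993 to 46032369. The next was Cxcl12 (ENSMUSG00000061353), whose product keeps haematopoietic cells in the bone marrow and guides their migration, on the plus strand of chromosome 6 at 117168535 to 117181367. Its nearest LIF summit was 104 kb downstream of a start site, with a score of 4.15 (rank 980). Both summits were in the lower-scoring part of the list, unlike those at Csf1 and Cxcl1.

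The IL-6 family genes stood further off. Il6 (ENSMUSG00000025746, plus strand of chromosome 5, 30013114 to 30019981), the inflammatory cytokine that gives the family its name, was 148 kb from the nearest LIF summit (score 5.11, rank 906). Lif (ENSMUSG00000034394, 4257557 to 4272514) and Osm (ENSMUSG00000058755, 4236420 to 4241026), which encode the ligand used here and its relative oncostatin M, are neighbours on the plus strand of chromosome 11 with start sites 21.1 kb apart. Their nearest LIF summit was the same, 343 kb from Lif and 322 kb from Osm, and with a score of 2.75 it ranked 1057 of 1088. Il11 (ENSMUSG00000004371, minus strand of chromosome 7, 4772373 to 4782859), a cytokine of fibroblasts, had no LIF summit within 15.0 Mb.

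At several of these genes the nearest summits of the remaining lists coincided. The -/-WT basal, -/-WT peroxide and -/-C3S peroxide lists each had a summit 617 kb from Il6. The -/-WT basal and -/-WT peroxide lists each had one 738 kb from Il11. Both peroxide lists and the -/-C3S basal list had one 1.74 Mb from Lif and 1.77 Mb from Osm. Both peroxide lists had one 287 kb from Cxcl12, and these lists and the -/-WT basal list had one 5.81 Mb from Vegfa.

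**Figure D5:**
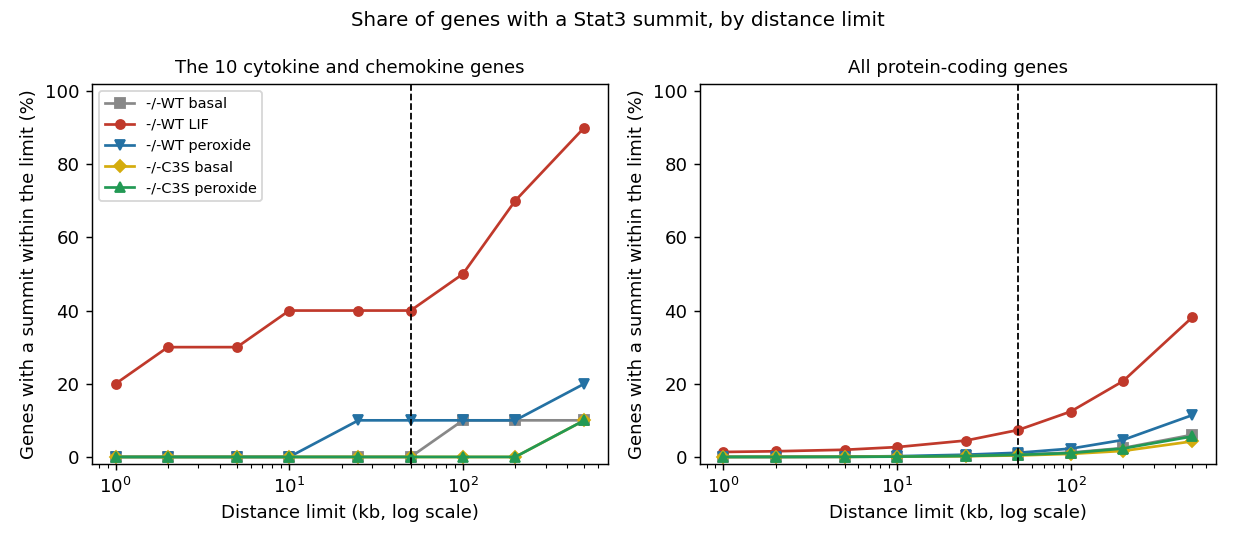
Share of genes with a summit within a distance limit of 1 to 500 kb (log axis), for the 10 genes (left) and for all protein-coding genes (right), by list. In the LIF list a summit was found for 2 of the 10 genes at 1 kb, 4 from 10 to 50 kb and 9 at 500 kb, against 1.36%, 2.69% to 7.38% and 38.1% of protein-coding genes.

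The distances show where the LIF summits of the 10 genes lay. All 4 genes with one within 50 kb already had it within 10 kb, and none was added between 10 and 50 kb, while the share of protein-coding genes rose from 2.69% to 7.38%. At 100 kb 5 of the 10 genes had one (12.4% of protein-coding genes), at 200 kb 7 (20.7%) and at 500 kb 9 (38.1%). In the -/-WT basal list the count was 0 up to 50 kb and 1 of 10 from 100 to 500 kb, where the share of protein-coding genes rose from 1.19% to 6.03%.

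Promoter sequence was compared with the 300-base windows RefSeq gives around 32851 start sites of GRCm38.p6, of which 7 of the 10 genes had an entry. Csf1, Il6, Lif, Cxcl1 and Cxcl12 had 1 window each, and Il11 and Vegfa had 2. None of them held an SIE, which 1.15% of all windows held, and only that of Cxcl1 held an SIE with 1 mismatch, against 17.8% of all windows. None held TTCNNNGAA (8.30% of all windows). AP-1 sites were in the windows of Il6 (TGAGTCA), Lif (TGACTCA) and Il11 (TGAGTCA, in 1 of 2), against 7.81% of all. NF-kB sites were in those of Csf1, Il6, Lif and Cxcl1 and in 1 of the 2 of Vegfa, against 8.46% of all. Only the Cxcl1 window contained a summit, that of the LIF list. The RefSeq window of Csf1 surrounds the start site at 107760469 and ends 129 bp short of the summit.

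Related genes were read from lists of the same families. Counts for the LIF list are to be read against the 7.38% of protein-coding genes with a LIF summit within 50 kb. For the -/-WT basal and peroxide lists that share was 0.615% and 1.15%. For the -/-C3S basal and peroxide lists it was 0.410% and 0.574%. None of 9 IL-6 family cytokine genes had a summit within 50 kb in any list, a count of 0 that lies close to the background at this number of genes. Of 4 colony-stimulating factor genes with Il34, which encodes the other ligand of the Csf1 receptor, 3 had a LIF summit within 50 kb, but only that of Csf1 was within 10 kb. The summit 18.8 kb from Csf3 was 0.0650 kb from Psmd3, and that 40.9 kb from Il34 was 0.0120 kb from Sf3b3. Among 19 CC chemokine genes, Ccl2, Ccl7 and Ccl11 shared the summit described above. Of 17 CXC and other chemokine genes 7 had a LIF summit within 50 kb, all in the cluster of Cxcl1: Cxcl1, Cxcl2, Cxcl3, Cxcl5, Cxcl15, Ppbp and Pf4. These genes are not separate places. Cxcl1 and Cxcl2 shared the summit at Cxcl1, and the rest shared the 4 summits upstream of Cxcl5. Only Cxcl1 and Cxcl5 had one within 10 kb. In that cluster Cxcl3 and Cxcl15 were also within 50 kb of the -/-WT basal summit, at 42.0 and 33.6 kb, and Cxcl1 and Cxcl2 within 50 kb of the -/-WT peroxide summit. Of 5 VEGF family genes only Vegfb had a LIF summit in range, at 34.7 kb (score 13.1) and nearest to Bad. Its window held the SIE TTCCCGGAA, 2 bp from the summit.

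Of 15 genes for receptors of the 10 proteins, 3 had a LIF summit within 50 kb, against 7.38% of protein-coding genes: Osmr, Il6st and Lifr, the subunits through which LIF and oncostatin M signal. Osmr had the second highest score of the LIF list (136, rank 2) 0.0840 kb from a start site, in an annotated UTR. The nearest start of a protein-coding Osmr transcript was 0.589 kb from that summit. Further summits lay 37.8 and 39.0 kb from Osmr (scores 25.8 and 14.7). Il6st had a summit 0.149 kb upstream of a start site (score 23.0, rank 128) and another at 46.7 kb. The latter lay inside a different gene, 2810403G07Rik, 0.00500 kb from a start site of that gene. The Lifr summit was weaker and further away, at 43.7 kb (score 3.84, rank 996). That summit lay downstream of Lifr and was nearest to a different gene, Egflam. Osmr was also the only receptor gene with a summit outside the LIF list, in -/-WT basal cells. That basal summit lay 0.0630 kb from a start site and 0.610 kb from that of a protein-coding transcript. Its score of 6.16 ranked 191 of 230. Within 1 kb of a start site there was a LIF summit at 2 of the 15 receptor genes (Osmr and Il6st), against 1.36% of protein-coding genes. The same held for 2 of the 10 ligand genes (Csf1 and Cxcl1), and no test of a difference between the groups was run.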

How the data were processed

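Stat3 ChIP-seq summits of -/-WT and -/-C3S MEFs were analysed as deposited, with 1 list per condition. Per the labels, the submitters' processing notes name HISAT2, Picard and MACS2 and the genome build mm10, with no versions or settings. The authors combined the 2 replicates of a condition and kept peaks whose read depth exceeded a set multiple of that of the IgG control. The deposited score of each summit is of a quantity not stated in the sources used here and was used for ranks within a list only. Input DNA and IgG libraries were not analysed here. The depth behind each summit is unknown, and how reads in repeats were placed is not given in the sources used here and could change which summits were called there.

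Distances were measured to all start sites of GENCODE M21, without mitochondrial genes. Both strands were scanned for motifs, 80 bp to either side of each summit, in the GRCm38.p6 sequence of RefSeq, whose coordinates mm10 shares, and in 10 windows per summit displaced by 10 to 50 kb to either side. Lower-case bases of the reference were counted as repeats. Summits of 2 lists within 200 bp were taken as the same place. No test was run, since each condition had 1 list. Intervals are exact Clopper-Pearson 95% intervals (SciPy), and limits for a count of 0 are 3 counts of the total. Sequence was printed for selected summits only.

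The 10 genes, the gene lists and the settings were chosen with earlier results of these data known. Named were the 10 genes, listed genes with a summit within 50 kb, the gene nearest to each summit, and the 4 genes most like Csf1. Alternatives were other distance limits, start sites of protein-coding transcripts, nearest genes only, the higher-scoring summits of each list, merging of summits within 500 bp, and other motif windows and mismatches. The promoter window, sites with 2 mismatches and the NF-kB motif were added after seeing the data. Tested on simulated data, the search found 200 of 200 genes with a planted summit and 600 of 600 planted motif sites. Python 3.11.15, NumPy 2.4.6, SciPy 1.17.1, pysam 0.24.0, samtools 1.23.1 and matplotlib 3.10.9 were used.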

Additional observations from a re-analysis of the deposited data

How the results depend on the processing

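In 11 of 78 alternatives a count went to or from 0. The other 67 left the value as it was or changed it less, for example from 7.38% to 5.54% of genes with a LIF summit within 50 kb when all annotated genes were counted, and from 9.73% to 6.60% repeat bases at the 3 LIF summits within 50 bp. The number of the 10 genes with a LIF summit within 50 kb, 4, ranged from 3 (nearest gene only, or the promoter window) to 5 (100 kb, which adds Vegfa). The single gene of the -/-WT peroxide list, Cxcl1, and its summit were lost (0) at 10 kb, and the gene count was also 0 for the higher-scoring part of that list, for nearest genes of either kind and for the promoter window. In the -/-WT basal list, 100 kb gave 1 gene and 1 summit where 50 kb gave 0. The number of LIF summits near the 10 genes with an SIE rose from 0 to 2 with up to 1 mismatch and to 3 with up to 2, and that with an AP-1 site fell from 1 to 0 within 50 bp. No paired analysis was possible because each condition has 1 list made from both replicates, and for the same reason no replicate could be left out. The lists hold no depth, and absence from a list says only that no peak was called.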

Other observations

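The core shared by Osmr and Il6st and, but for 1 base, by Csf1 was counted over the whole LIF list. It was chosen after the 3 sites were seen, so the count is a description. TTANGGGAA, on either strand, occurred in 54 of the 1088 LIF windows (4.96%, exact Clopper-Pearson 95% interval 3.75 to 6.43%) and in 51 of 10857 displaced windows (0.470%). The windows that held it had a median rank of 385, and 3 of the 10 highest-scoring LIF summits were among them. The windows of Csf1, Osmr and Il6st, from which the pattern was taken, are among the 54 by choice. Those of Osmr and Csf1 are likewise among these 3. The shares are for any base at the N and do not describe the form with T. With a T at the N, as at Csf1, the pattern has 2 mismatches to the SIE and is missed by a search that allows 1.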
